A study of Homo sapiens with 18 samples.

Results

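The Sprouty and SPRED genes code for inhibitors that cells make to restrain the Ras, RAF, MEK and ERK kinase cascade. The 10 genes described here were taken by name. They were the Sprouty genes SPRY1, SPRY2, SPRY3 and SPRY4, the SPRED genes SPRED1, SPRED2 and SPRED3, and ETV4, ETV5 and PHLDA1, which are widely used as readouts of ERK output. They were 10 of the 34255 genes to which transcripts of the count table could be matched, and all 10 were among the 15519 genes that passed the filter on low counts and were tested.

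Growth factor receptors switch on Ras, and Ras starts the relay of kinases that ends in ERK, which enters the nucleus and raises the transcription of many genes. Sprouty and SPRED proteins are among the products of these genes, and because they block the cascade upstream of ERK they form a negative feedback loop, Sprouty proteins at the level of receptor adaptors and RAF, and SPRED proteins by bringing the Ras inactivator neurofibromin to the membrane. ETV4 and ETV5 are transcription factors of the PEA3 branch of the ETS family. PHLDA1 codes for a pleckstrin homology-like protein that follows ERK output in many cell types. The β2-adrenergic receptor (β2AR) is a G protein-coupled receptor that signals through Gαs to adenylyl cyclase and cAMP and that also binds β-arrestins, which were once proposed to carry a signal to ERK of their own.

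RNA was sequenced from HEK293 cells, an established human embryonic kidney line, in 3 genotypes. These were wildtype cells, β-arrestin1/2 KO cells, in which both β-arrestin genes had been edited with CRISPR-Cas9, and Gαs KO cells, in which the Gαs gene GNAS had been edited in the same way. All cells, wildtype cells included, carried a transfected plasmid for β2AR and had been serum starved overnight, and 48 h after transfection they were kept with vehicle for 1 h (basal) or stimulated for 1 h with 1 μM isoproterenol, an agonist of β-adrenergic receptors. Each of the 6 groups had 3 biological replicates, so there were 18 libraries. Each genotype was a separately kept line, and an effect of the edited gene and any other difference between the lines cannot be told apart.

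The libraries held between 17908597 and 25019834 counts. GNAS stood at 1173 to 1365 normalized counts in the 6 Gαs KO libraries against 20419 to 33553 in wildtype cells, and ARRB2, the β-arrestin2 gene, at 291 to 441 in β-arrestin1/2 KO cells against 1528 to 2523, whereas ARRB1, the β-arrestin1 gene, overlapped (725 to 832 against 736 to 1250), so its RNA was no check of the edit. The first wildtype basal library stood apart, with a count-weighted GC content of 52.49% against 49.15 to 50.1% in the other 17, and values without it are given beside the results they bear on most. Of the markers of other cell types, PTPRC, PECAM1 and ALB stayed at or under 4.34, 12.6 and 8.53 normalized counts, and COL1A1 stood at 352 to 914, while VIM, KRT8, KRT18 and CDH2 of the HEK293 list were present in all libraries and PAX2 was low (17.2 to 68.2).

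Compared per length of transcript, SPRY2 was the most abundant member in all 6 groups. Its level, in TPM (transcripts of a gene out of a fixed total, scaled by transcript length and computed here from the counts), was 38.0 ± 0.54 (SD, n = 3) in basal wildtype cells, where its lowest library lay above the highest of SPRY1. SPRY1 followed at 24.2 ± 3.64 TPM and SPRED2 at 20.1 TPM, and the libraries of these neighbours overlapped. SPRED1 (6.58 TPM), ETV5 (5.07 TPM), SPRY4 (3.12 TPM) and PHLDA1 (2.48 TPM) came next, and each overlapped with the gene after it except PHLDA1, which lay above SPRED3 (1.5 TPM). ETV4 (0.616 TPM) and SPRY3 (0.385 TPM), the lowest, overlapped. In β-arrestin1/2 KO cells at basal SPRY1 stood below SPRED2, with levels of 7.67 to 13.4 TPM against 19.5 to 21.9 TPM. The remaining values in the text are normalized counts, which compare 1 gene across libraries and not genes with one another.

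With isoproterenol, SPRY2 rose in the wildtype line and the β-arrestin1/2 KO line, and SPRY4 in the latter. No other member passed the test in any line, and none passed it in Gαs KO cells. In wildtype cells 1 of the 10 members was called higher (edgeR, adjusted p under 0.05), where 0.412% of all genes tested were called higher. In the β-arrestin1/2 KO line 2 of 10 were called, where 0.954% of all genes were called higher. Without the first wildtype basal library these shares of all genes were 0.831% and 6.6%, with 1 and 3 members called. In Gαs KO cells edgeR called 0 of 10 members and 0.0% of all genes higher, 0 members had an unadjusted p under 0.05 and DESeq2 called 0 members. Over all genes 163 (1.05%) had such a p there and DESeq2 called 9. In the wildtype and β-arrestin1/2 KO lines 10.5% and 8.31% of all genes had such a p, with 1 and 3 members.

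**Figure D1:**
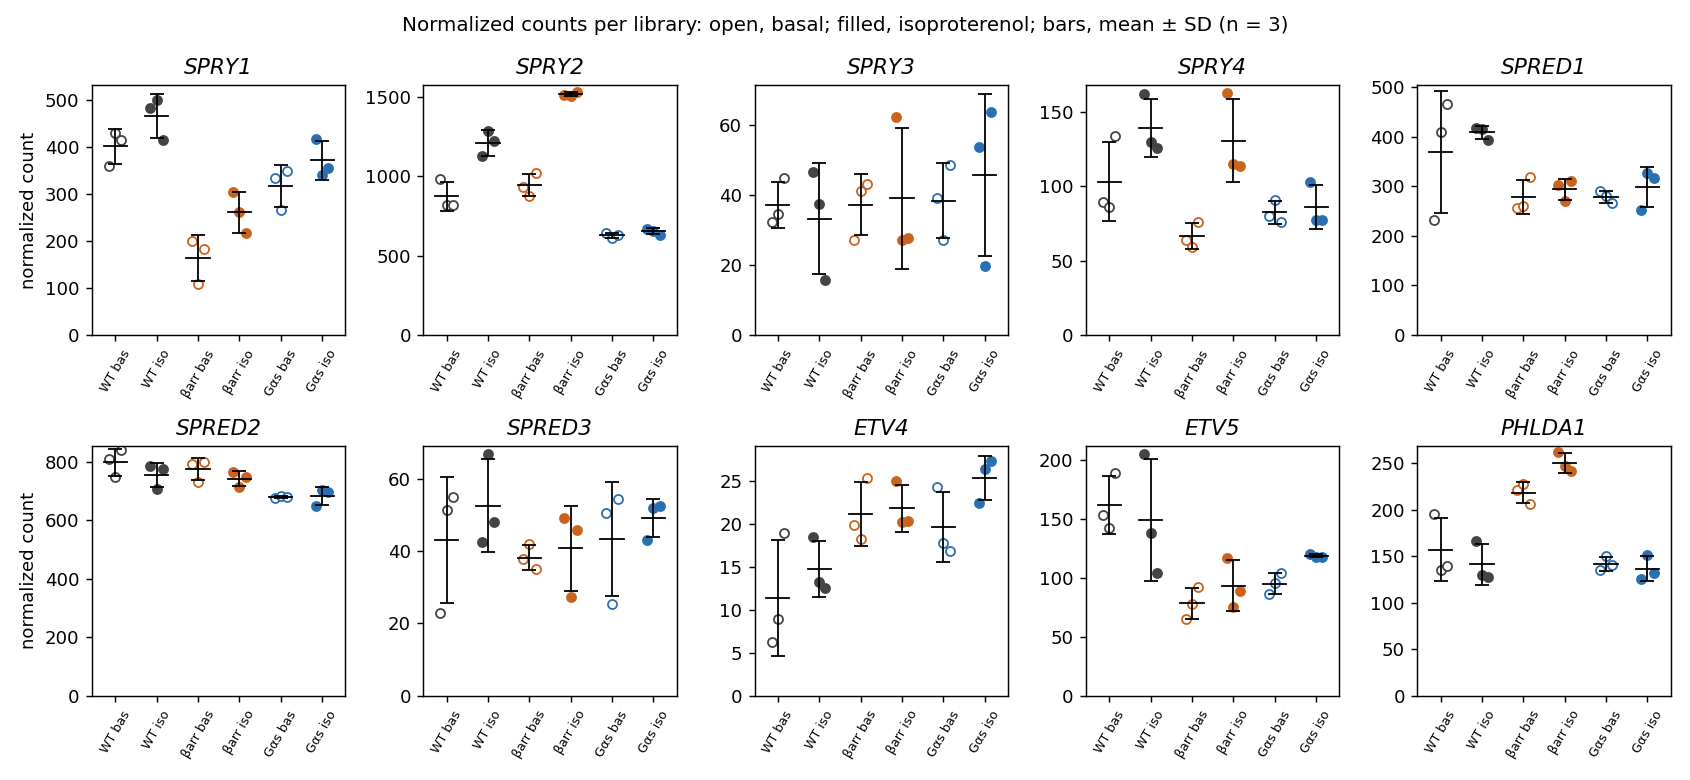
Normalized counts (vertical axes, from 0) of the 10 genes in each of the 18 libraries, by group (WT, wildtype; βarr, β-arrestin1/2 KO; Gαs, Gαs KO; bas, basal; iso, isoproterenol). Open points are basal and filled points isoproterenol libraries, with mean ± SD (n = 3). SPRY2 ran from 1508 to 1530 in β-arrestin1/2 KO cells with isoproterenol and from 632 to 670 in Gαs KO cells with isoproterenol.

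SPRY2 (ENSG00000136158, chr13:80335976-80340951, minus strand, GRCh38) codes for Sprouty2, the most studied inhibitor of receptor tyrosine kinase signaling of the family. In wildtype cells its normalized counts were 980, 822 and 817 in the basal libraries and 1125, 1287 and 1220 with isoproterenol. All isoproterenol libraries lay above all basal ones, and SPRY2 was the 1 member of which this was true, against 4.85% of all genes. The log2 fold change was 0.47 (SE 0.0848, adjusted p = 0.0123), a 1.39-fold ratio of the means. The highest basal value came from the library with the high GC content, and without it the log2 fold change was 0.56 (adjusted p = 9.85e-05). With offsets for GC content and length it was 0.38 (adjusted p = 0.0996) and the call was lost, as it was in a fit of only the groups compared (adjusted p = 0.946), without the third basal library (0.43, adjusted p = 0.0557) and without the second (0.43, adjusted p = 0.0942) or the third isoproterenol library (0.47, adjusted p = 0.0574).

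In β-arrestin1/2 KO cells SPRY2 went from 932, 879 and 1018 at basal to 1514, 1508 and 1530 with isoproterenol. These 3 stimulated libraries were nearly equal and were the highest of all 18. The log2 fold change was 0.69 (SE 0.0845, adjusted p = 0.000154), or 1.61-fold, and it was called under all 26 alternatives. In Gαs KO cells the values were 644, 613 and 628 at basal and 670, 658 and 632 with isoproterenol, so the groups overlapped and all 6 libraries lay below every library of the other lines. The log2 fold change there was 0.06 with a 95% interval from -0.13 to 0.24. RNA was taken from all cells of a well together, so a change in every cell and a change in a share of the cells cannot be told apart.

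SPRY4 (ENSG00000187678, chr5:142310427-142326455, minus strand), the gene of Sprouty4, had far fewer counts than SPRY2 and wider errors. In β-arrestin1/2 KO cells it stood at 64.0, 59.4 and 76.1 at basal and at 163, 115 and 114 with isoproterenol, without overlap. The log2 fold change was 0.98 (SE 0.211, adjusted p = 0.0282), or 1.97-fold, with the first isoproterenol library above the others. Of 26 alternatives 18 kept the call. It was lost without the first isoproterenol library (0.78, adjusted p = 0.202), without the third (1.07, adjusted p = 0.0502) and without any 1 of the 3 basal libraries (0.90 to 1.08, adjusted p up to 0.16). In wildtype cells SPRY4 stood at 89.6, 85.9 and 134 at basal and at 162, 130 and 126 with isoproterenol, and the third basal library lay above 2 of the isoproterenol libraries (log2 fold change 0.43, 95% interval -0.01 to 0.87, adjusted p = 0.484). In Gαs KO cells it stood at 80.3, 90.9 and 76.2 against 103, 77.3 and 77.3, a log2 fold change of 0.06 (95% interval -0.39 to 0.5).

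SPRY1 (ENSG00000164056, chr4:123396795-123403760, plus strand), the gene of Sprouty1, did not pass the test in any line. In β-arrestin1/2 KO cells its counts were 201, 108 and 183 at basal and 305, 261 and 218 with isoproterenol, without overlap. The log2 fold change was 0.68 (SE 0.194, adjusted p = 0.17), which DESeq2 called (adjusted p = 0.0456), as did edgeR without the first wildtype basal library (adjusted p = 0.025). In wildtype cells (359, 429 and 416 against 483, 501 and 414) and in Gαs KO cells (335, 266 and 349 against 418, 340 and 356) the groups overlapped, with log2 fold changes of 0.22 and 0.23. SPRY3, the Sprouty gene of the pseudoautosomal end of the X chromosome, stayed between 15.7 and 63.7 in all libraries, and its log2 fold changes of -0.16, 0.07 and 0.25 had standard errors of 0.451 to 0.463.

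The upstream windows of these Sprouty genes are shown for the recognition sequences of the factors that cAMP and ERK act on. Of the 10 members, 8 had windows in the RefSeq promoter table (GRCh38.p14), 14 in all, and the 250 bases before each start were searched on both strands for TGACGTCA (the full cAMP response element), TGACG (its core, which every full element also holds), CCGGAA (an ETS core) and TGANTCA (an AP-1 site). Among 35116 such windows of all genes, 1.65% held TGACGTCA, 21.2% TGACG, 14.5% CCGGAA and 6.57% TGANTCA. SPRY2 had a match of TGACG beginning 190 bases before its first start and one of CCGGAA beginning 142 bases before it, SPRY4 one of TGACG at 68 bases, and SPRY1 one of CCGGAA at 67 bases before its second start. PHLDA1 held CCGGAA, SPRED3 an AP-1 match and SPRY3 TGACG, and 0 member windows held the full element. A match is a run of letters and was not tested as a binding site. The windows of SPRY2 (chr13:80341127-80341376, minus strand), SPRY4 (chr5:142324248-142324497, minus strand) and SPRY1 (chr4:123398136-123398385, plus strand) are given from 5′ to 3′ on the strand of the gene, with matches in capitals. The SPRY4 and SPRY1 windows lie inside the longer gene models of GENCODE release 29.

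SPRY2: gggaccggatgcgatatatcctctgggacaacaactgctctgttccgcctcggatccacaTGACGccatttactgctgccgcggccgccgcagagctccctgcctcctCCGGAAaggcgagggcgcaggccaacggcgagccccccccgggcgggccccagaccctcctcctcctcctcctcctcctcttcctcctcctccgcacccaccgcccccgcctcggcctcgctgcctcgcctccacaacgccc
SPRY4: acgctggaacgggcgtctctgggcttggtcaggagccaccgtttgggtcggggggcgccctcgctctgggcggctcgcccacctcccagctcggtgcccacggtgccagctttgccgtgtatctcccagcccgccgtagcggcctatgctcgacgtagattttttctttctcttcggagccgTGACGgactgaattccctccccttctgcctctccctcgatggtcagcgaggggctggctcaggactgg
SPRY1: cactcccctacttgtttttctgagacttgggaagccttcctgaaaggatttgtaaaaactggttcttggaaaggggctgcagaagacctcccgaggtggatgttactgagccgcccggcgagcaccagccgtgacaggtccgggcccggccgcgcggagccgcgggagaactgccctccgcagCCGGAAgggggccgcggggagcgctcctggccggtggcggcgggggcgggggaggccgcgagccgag

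No SPRED gene was called in a response. SPRED2 (ENSG00000198369, chromosome 2), the most abundant of them, stood at 810, 748 and 840 in basal wildtype cells and at 785, 707 and 775 with isoproterenol. Its log2 fold change of -0.08 had a 95% interval from -0.24 to 0.08, and it was -0.06 (-0.22 to 0.1) in the β-arrestin1/2 KO line and 0.01 (-0.15 to 0.17) in the Gαs KO line. Changes of the size seen for SPRY2 in wildtype cells lay outside these 3 intervals. SPRED1, the gene mutated in Legius syndrome, had responses of 0.15, 0.08 and 0.1 with standard errors of 0.185 to 0.187, and its first wildtype basal library, at 231 against 409 and 466, was the lowest of all 18. Without it the wildtype value of SPRED1 was -0.1. SPRED3 ran from 22.9 to 66.9, and its responses of 0.29, 0.09 and 0.17 had standard errors of 0.34 to 0.346, the first of them being -0.02 without that library.

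The ERK readouts among the members were not called either. PHLDA1 went from 221, 228 and 206 to 262, 247 and 242 in β-arrestin1/2 KO cells, without overlap, a log2 fold change of 0.2 (SE 0.147, adjusted p = 0.784). With SPRY1, SPRY2 and SPRY4 it made 4 of 10 members whose isoproterenol libraries all lay above the basal ones in this line, against 15.4% of all genes. ETV5 went from 85.9, 95.6 and 104 to 120, 118 and 118 in Gαs KO cells, again without overlap, with a log2 fold change of 0.32 (95% interval -0.16 to 0.8, adjusted p = 1.0). It was the 1 member with that separation in Gαs KO cells, against 4.9% of all genes. In wildtype cells PHLDA1 (-0.15) and ETV5 (-0.11) had fold changes below 0 on the log2 scale with overlapping libraries, and PHLDA1 stood at 0.04 without the first wildtype basal library. ETV4 held 6.25 to 27.3 normalized counts, too few for its responses of 0.37, 0.05 and 0.37 (SE 0.35 to 0.381) to be told from 0, and the wildtype value was 0.07 without the first wildtype basal library.

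**Figure D2:**
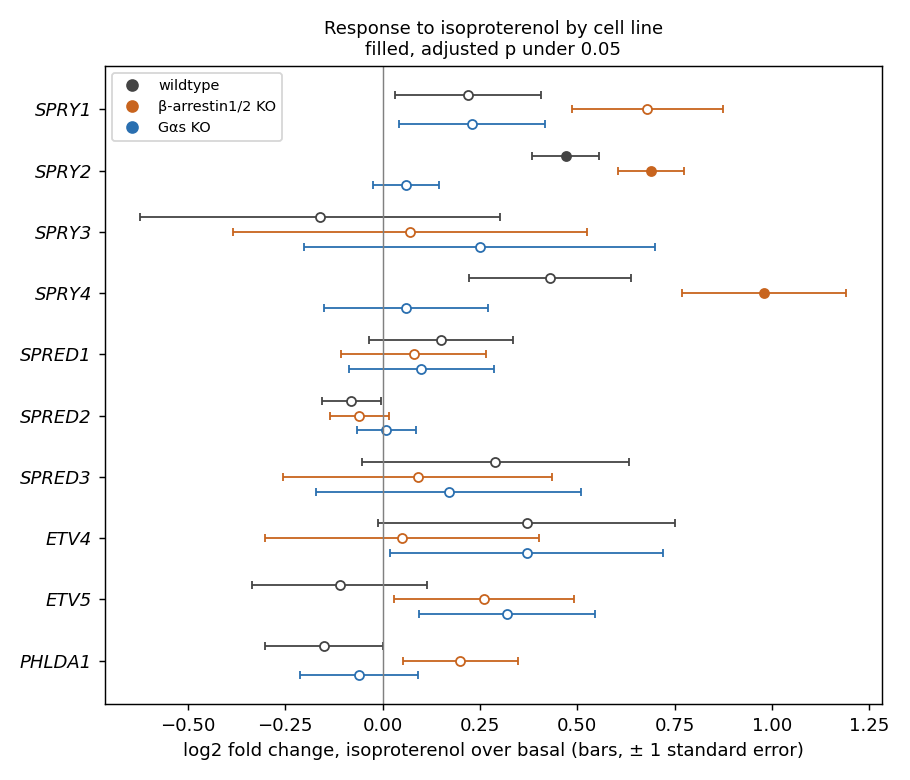
Log2 fold change of isoproterenol over basal (horizontal axis) for the 10 genes in each of the 3 lines, with bars of 1 standard error from the edgeR fit. Filled points are called at an adjusted p under 0.05: SPRY2 in the wildtype line (0.47), and SPRY2 (0.69) and SPRY4 (0.98) in the β-arrestin1/2 KO line.

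Over the 10 members the median log2 fold change was 0.18 for the wildtype, 0.14 for the β-arrestin1/2 KO and 0.14 for the Gαs KO line, beside medians of -0.002, -0.008 and -0.001 over all genes tested. The members ran from -0.16 to 0.47, from -0.06 to 0.98 and from -0.06 to 0.37. The wildtype median depended on the first wildtype basal library. Without it the wildtype values were 0.14 for SPRY1, 0.56 for SPRY2, -0.25 for SPRY3 and 0.34 for SPRY4. Those of SPRED1, SPRED2 and SPRED3 were -0.1, -0.07 and -0.02, and those of ETV4, ETV5 and PHLDA1 were 0.07, -0.15 and 0.04. GC content moved with the β-arrestin1/2 KO response, at 49.76 to 50.1% in the basal and 49.29 to 49.43% in the isoproterenol libraries of that line. With GC and length offsets SPRY2 and SPRY4 were still called in that line (0.65, adjusted p = 0.00135, and 1.07, adjusted p = 0.0151).

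The SPRY2 response of β-arrestin1/2 KO cells was larger than that of Gαs KO cells. The difference was 0.63 on the log2 scale (SE 0.12, 95% interval 0.38 to 0.88, adjusted p = 0.0251), and SPRY2 was the 1 member called, against 0.406% of all genes (2.68% without the first wildtype basal library, where SPRY2 was still the 1 member). It kept this size in all alternatives (0.57 to 0.68) but was called in 11 of 26. It was not called without any 1 of 11 libraries, all from the 2 KO lines, at adjusted p between 0.063 and 0.104. For SPRY4 the same difference was 0.92 (95% interval 0.29 to 1.55, unadjusted p = 0.00701, adjusted p = 0.55) and for SPRY1 0.45 (-0.12 to 1.02).

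Neither KO line differed from wildtype cells in the response of a member by this test. edgeR and DESeq2 called 0 of 10 members in both differences. By edgeR 0.168% of all genes were called for β-arrestin1/2 KO minus wildtype and 0.161% for Gαs KO minus wildtype. Without the first wildtype basal library these shares were 8.25% and 0.418%, with 0 and 1 members called. With all 18 libraries an unadjusted p under 0.05 was found for 0 and 1 members, against 5.57% and 4.63% of all genes. That 1 was SPRY2, whose Gαs KO response was lower than the wildtype response by a log2 difference of -0.42 (95% interval -0.67 to -0.16, unadjusted p = 0.0033, adjusted p = 0.545). Without the first wildtype basal library it was -0.5 and was called (adjusted p = 0.0133). The β-arrestin1/2 KO response of SPRY2 minus the wildtype one was 0.21 (95% interval -0.04 to 0.47), that of SPRY4 was 0.55 (-0.08 to 1.17) and that of SPRY1 0.46 (-0.11 to 1.03). The intervals include both 0 and differences as large as the wildtype responses themselves. These comparisons share libraries, so their values are not independent.

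At basal, before any agonist, the lines differed in many genes, and the members differed about as often as other genes did. Between the β-arrestin1/2 KO and wildtype lines 4 of 10 members were called, where 33.6% of all genes were. Between Gαs KO and wildtype cells 3 of 10 were called, where 31.3% were, and between the KO lines 3 of 10, where 26.2% were. These counts were 6, 4 and 4 members without the first wildtype basal library, where 46.7%, 45.9% and 45.3% of all genes were called. The direction depended on the gene: SPRY1, SPRY4 and ETV5 were lower and PHLDA1 was higher in β-arrestin1/2 KO cells than in wildtype cells, and SPRY2, SPRED2 and ETV5 were lower in Gαs KO cells.

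SPRY1 had the largest basal difference. Its 201, 108 and 183 counts in β-arrestin1/2 KO cells lay below all 3 wildtype libraries (359, 429 and 416), a log2 difference of -1.3 (SE 0.194, adjusted p = 9e-05), and below those of Gαs KO cells (335, 266 and 349) by a log2 difference of -0.96 (adjusted p = 0.00145). Both were called under all 26 alternatives. After isoproterenol the 305, 261 and 218 counts of β-arrestin1/2 KO cells were still below every basal wildtype library. SPRY4 was lower as well, at 64.0, 59.4 and 76.1 against 89.6, 85.9 and 134 (-0.64, adjusted p = 0.0299), but the call was lost without the third wildtype basal library (-0.4, adjusted p = 0.169) and without the first (-0.60, adjusted p = 0.086) or second (-0.55, adjusted p = 0.113) β-arrestin1/2 KO basal library, and in 5 of the 8 other alternatives (adjusted p 0.0502 to 0.18). With isoproterenol SPRY4 reached 163, 115 and 114 in β-arrestin1/2 KO cells, which overlapped with the 162, 130 and 126 of wildtype cells.

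SPRY2 had another basal pattern. In Gαs KO cells its 644, 613 and 628 counts lay below the 980, 822 and 817 of wildtype cells (log2 difference -0.47, SE 0.0854, adjusted p = 0.000494) and below the 932, 879 and 1018 of β-arrestin1/2 KO cells, which were higher by 0.59 (adjusted p = 7.75e-05). β-arrestin1/2 KO and wildtype cells overlapped (0.11, 95% interval -0.07 to 0.29), although without the first wildtype basal library the difference was 0.21 (adjusted p = 0.0188). SPRED2 was lower in Gαs KO cells by a smaller step, at 677, 685 and 681 against 810, 748 and 840 (-0.23, adjusted p = 0.0286, called in 19 of 26 alternatives). That call was lost without the third wildtype basal library (adjusted p = 0.0941) and without any 1 Gαs KO basal library (adjusted p up to 0.0777).

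ETV5 was lower in both KO lines. Wildtype cells held 153, 142 and 189 counts. β-arrestin1/2 KO cells held 65.1, 77.6 and 92.0 (-1.04, adjusted p = 0.00228) and Gαs KO cells 85.9, 95.6 and 104 (-0.76, adjusted p = 0.0175), and neither KO line overlapped with wildtype. The second difference was lost without the third wildtype basal library (-0.63, adjusted p = 0.0667) and without the first Gαs KO basal library (-0.7, adjusted p = 0.0681). PHLDA1 was higher in β-arrestin1/2 KO cells, at 221, 228 and 206, than in wildtype cells at 196, 135 and 140 (0.48, adjusted p = 0.0215) and in Gαs KO cells at 135, 150 and 141 (0.62, adjusted p = 0.00521). The first of these differences was 0.67 without the first wildtype basal library. It was 0.3 (adjusted p = 0.261) with GC and length offsets, and its call was lost without the second or the third wildtype basal library and without the first or second β-arrestin1/2 KO basal library (0.38 to 0.48, adjusted p up to 0.0738). ETV4 was not called (0.89 and 0.78 for the KO lines against wildtype), and its 3 wildtype basal libraries held only 6, 8 and 17 counts before normalization. Of 25 alternatives 1 called it in both, the fit without the third wildtype basal library (1.47, adjusted p = 0.00732, and 1.36, adjusted p = 0.0125). Without the first wildtype basal library the ETV4 differences were 0.6 (adjusted p = 0.224) and 0.48 (adjusted p = 0.332). SPRED1 was not called either, with -0.4 in both KO lines, but was called at -0.65 (adjusted p = 0.000251 and 0.000239) without the first wildtype basal library. SPRY3 and SPRED3 were not called in any basal comparison.

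**Figure D3:**
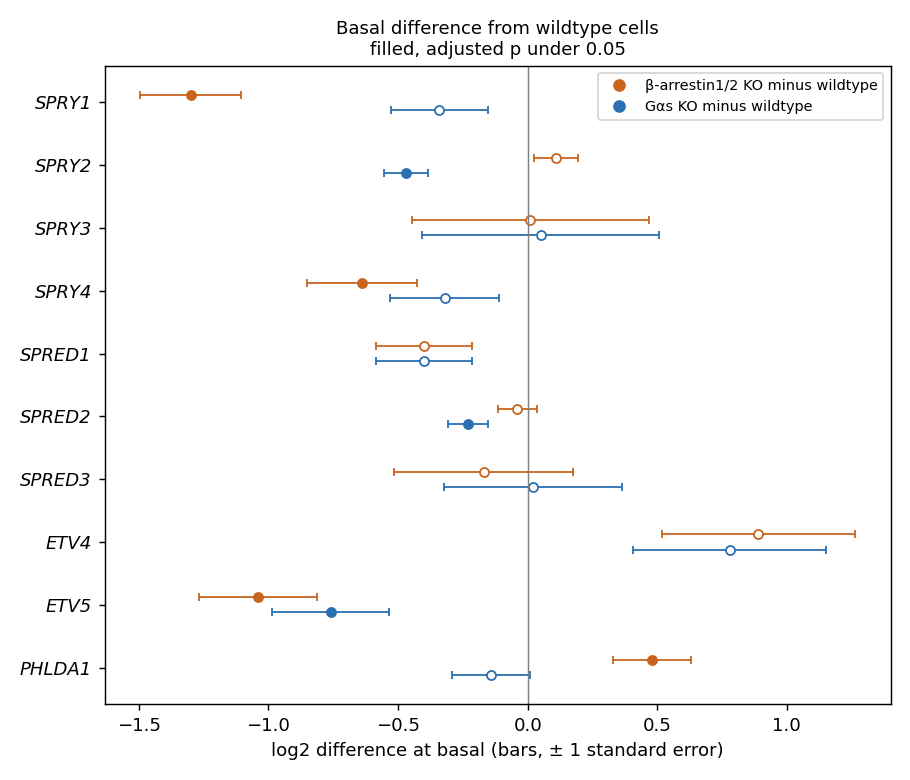
Log2 difference of β-arrestin1/2 KO cells and of Gαs KO cells from wildtype cells at basal (horizontal axis) for the 10 genes, with bars of 1 standard error from the edgeR fit. Filled points are called at an adjusted p under 0.05. SPRY1 lies at -1.3 and ETV5 at -1.04 in β-arrestin1/2 KO cells, and SPRY2 at -0.47 in Gαs KO cells.

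Other genes read out by ERK were described from a list of 10. In wildtype cells 2 of the 10 were called higher with isoproterenol, DUSP5 (0.80), which codes for a nuclear ERK phosphatase, and IER3 (0.97), an immediate early gene. In β-arrestin1/2 KO cells 5 of 10 were, the phosphatase genes DUSP4 (1.08), DUSP5 (1.43) and DUSP6 (1.36), the cyclin D1 gene CCND1 (0.37) and the ephrin receptor gene EPHA2 (0.69). In Gαs KO cells edgeR called 0. Over all genes 0.412% and 0.954% were called higher in the wildtype and β-arrestin1/2 KO lines. Without the first wildtype basal library these shares were 0.831% and 6.6%. For β-arrestin1/2 KO minus wildtype edgeR called 0 of the 10 response differences. In wildtype cells DUSP4 (0.43) and DUSP6 (0.98) were not called, though their isoproterenol libraries all lay above the basal ones. DUSP4 is the clearest case, with 488, 578 and 534 counts at basal and 1286, 1050 and 1036 with isoproterenol in β-arrestin1/2 KO cells, and 395, 412 and 400 against 420, 426 and 405 in Gαs KO cells. The response difference between the KO lines was called for DUSP4 (1.02, adjusted p = 0.00151) and DUSP5 (1.07, adjusted p = 0.0437). IER3 was called in wildtype cells and not in β-arrestin1/2 KO cells (234, 366 and 387 against 384, 401 and 433), but the difference of these responses was not called (-0.67, adjusted p = 0.628). The list's median log2 fold change was 0.25 in the wildtype, 0.57 in the β-arrestin1/2 KO and 0.02 in the Gαs KO line. Several of these calls rested on all libraries being present. The calls of DUSP6 (adjusted p up to 0.101) and EPHA2 (up to 0.167) were lost without any 1 of the 6 β-arrestin1/2 KO libraries, that of EPHA2 also without the second wildtype isoproterenol library (0.0506) or any 1 Gαs KO basal library (up to 0.0526), and the wildtype calls of DUSP5 (up to 0.139) and IER3 (up to 0.0625) without the first isoproterenol or the third basal library, that of DUSP5 also without the second basal library. The DUSP5 difference between the KO lines was lost without any 1 of 14 libraries (adjusted p 0.053 to 0.174), and the DUSP4 difference was called in all 26 alternatives. At basal IER3 was higher than in wildtype cells in both KO lines (1.2 and 0.75), EPHA2 was lower in both (-0.82 and -0.84, or -0.53 and -0.55 without the first wildtype basal library), and in Gαs KO cells DUSP5 was lower (-1.49) and ETV1, another PEA3 factor gene, higher (1.23).

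EGR1, an immediate early transcription factor gene, is named after its values were seen. Of that list it had the lowest unadjusted p of the edgeR test in Gαs KO cells. It stood there at 261, 307 and 282 counts at basal and 463, 435 and 471 with isoproterenol (log2 0.68, 95% interval 0.39 to 0.98, unadjusted p = 0.000173). EGR1 was not called (adjusted p = 1.0), and its response was 0.55 in β-arrestin1/2 KO cells (adjusted p = 0.0798) and 0.24 in wildtype cells (adjusted p = 0.533). DUSP5 had the next lowest unadjusted p in Gαs KO cells by the same test (log2 0.36, 95% interval 0.01 to 0.7, unadjusted p = 0.0434). Its counts of 110, 78.7 and 73.7 at basal overlapped with 114, 101 and 121 with isoproterenol, and it was not called.

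**Figure D4:**
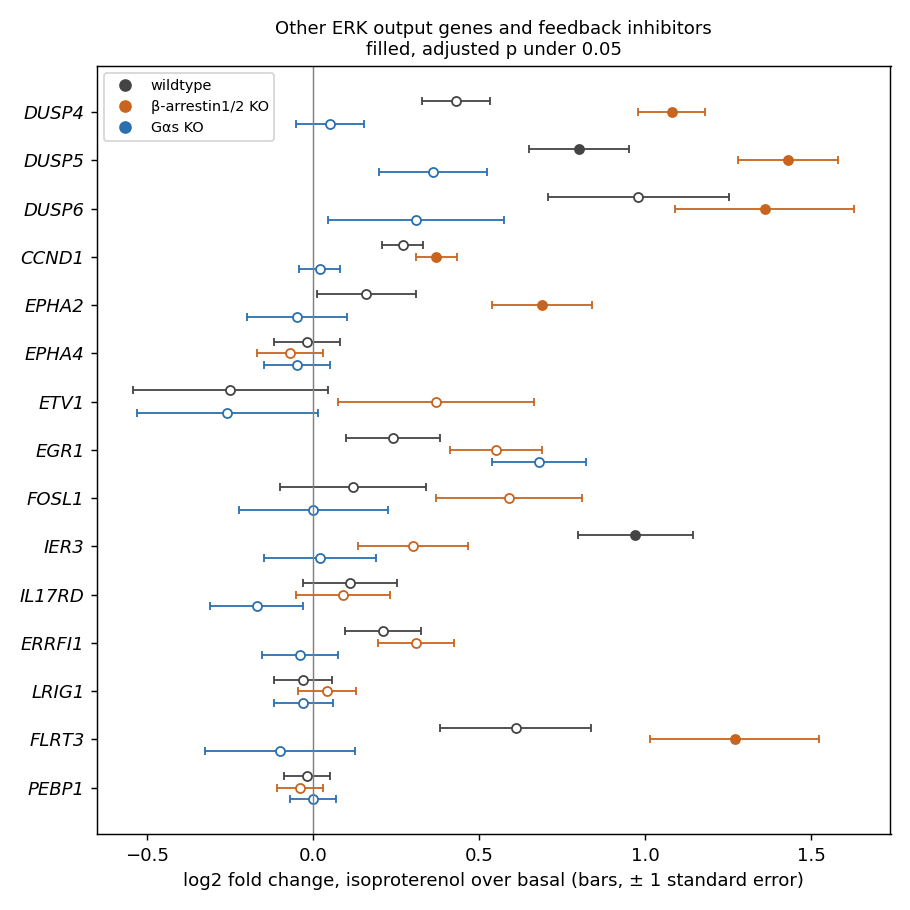
Log2 fold change of isoproterenol over basal (horizontal axis) in the 3 cell lines for 10 other ERK output genes (DUSP4 to IER3) and 5 other regulators of receptor signaling to ERK (IL17RD to PEBP1). The title in the figure calls the 5 feedback inhibitors, a role not shown here for FLRT3. Bars are 1 standard error from the edgeR fit, and filled points are called at an adjusted p under 0.05. No point of Gαs KO cells is filled, and 6 points of β-arrestin1/2 KO cells are.

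Among the other genes around the Sprouty and SPRED proteins, 1 was called in a response. It was FLRT3, a membrane protein gene of the fibroblast growth factor pathway, from a list of 5 other regulators of receptor signaling to ERK. FLRT3 rose in β-arrestin1/2 KO cells from 24.1, 21.4 and 21.1 to 47.1, 45.5 and 68.3 (1.27, adjusted p = 0.016). At basal it was lower there than in wildtype cells by a log2 difference of -2.0. The call of its response was lost without the third isoproterenol library (1.05, adjusted p = 0.117) and without any 1 basal library of that line (adjusted p up to 0.0902). Of this list 3 of 5 genes were called at basal between the β-arrestin1/2 KO and wildtype lines and 2 of 5 between the Gαs KO and wildtype lines, where 33.6% and 31.3% of all genes were. ERRFI1 was higher in both KO lines than in wildtype cells (0.58 and 0.38, or 0.41 and 0.2 without the first wildtype basal library), LRIG1 was lower in Gαs KO cells (-0.5) and PEBP1 lower in β-arrestin1/2 KO cells (-0.33). Of 10 genes for proteins that bind or act with Sprouty and SPRED (among them NF1, CBL and CAV1), 20 genes of the cascade from receptor to ERK, and the 3 genes of the ETV4 and ETV5 repressor CIC and its partners, edgeR called 0 in any response or response difference. Their responses in β-arrestin1/2 KO cells ran from -0.24 to 0.17, from -0.3 to 0.23 and from -0.07 to 0.0. At basal 4 and 5 of the 10 partner genes, 4 and 3 of the 20 cascade genes, and 0 and 1 of the 3 repressor genes differed from wildtype by the same test in the β-arrestin1/2 KO and the Gαs KO line. CBLB was higher in both KO lines (0.39 and 0.44), DYRK1A was too (0.29 and 0.7), ARAF was lower (-0.75, or -0.51 without the first wildtype basal library) and GAB1 higher (0.57, or 0.29 without it) in β-arrestin1/2 KO cells, and ATXN1L, the gene of a CIC partner, higher in Gαs KO cells (0.52). NF1, the neurofibromin gene, was lower in β-arrestin1/2 KO cells (-0.46, adjusted p = 0.00595) and Gαs KO cells (-0.45, adjusted p = 0.00782), and CAV1, the caveolin gene, was higher in Gαs KO cells (1.0, adjusted p = 4.06e-07). KSR1, the gene of a scaffold of the cascade, was lower in both (-0.58, adjusted p = 0.0168, and -1.07, adjusted p = 0.000208, or -0.23, adjusted p = 0.046, and -0.73 without the first wildtype basal library), and EGFR, a receptor gene, was higher in Gαs KO cells (0.86, adjusted p = 3.38e-05). The GAB1 call was lost without any 1 of the β-arrestin1/2 KO basal libraries (adjusted p 0.0615 to 0.0921), the KSR1 call in that line without its first (0.0529) or second (0.0759), and the ERRFI1 call in Gαs KO cells without the first basal library of that line (0.0656).

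The genes whose log2 levels followed SPRY2 most closely over the 18 libraries were RHOB (Pearson's r 0.99), PCK1 (0.99) and FOSB (0.97). They are a small GTPase gene, the gene of an enzyme of glucose synthesis and an AP-1 subunit gene. RHOB responded by 0.64, 1.11 and 0.0, PCK1 by 3.23, 4.92 and 0.02 and FOSB by 2.05, 1.89 and 0.14 on the log2 scale in the wildtype, the β-arrestin1/2 KO and the Gαs KO line. Their responses were thus larger than the 0.47 and 0.69 of SPRY2 in the first 2 lines. SPRY4 was most like HERPUD1 (0.88), CRY1 (0.86) and NR4A3 (0.83). In the same order of lines HERPUD1 responded by 0.12, 0.42 and 0.06, CRY1 by 0.18, 0.12 and -0.01 and NR4A3 by 2.32, 4.37 and -0.51. CRY1 was not called in any line, and HERPUD1 only in β-arrestin1/2 KO cells. The points share cell lines and treatment, so these values describe likeness of pattern and nothing else.

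The share of the leading transcript varied widely between libraries for SPRY1, SPRY4, ETV4 and PHLDA1. For the other members 1 transcript held most counts in every library. Its lowest share was 99.9% for SPRY3, 83.4% for SPRED2, 73.8% for ETV5, 72.7% for SPRED3 and 72.3% for SPRED1. SPRY2-202 held 91.4 to 98.4% of the SPRY2 counts in every library, so the gene sum was nearly that transcript. By contrast, SPRY4-202 held 0.0% in the third wildtype basal library and 67.1% or more in the other 17, and PHLDA1-202 ran from none to all of the counts, with 7 libraries at 0. The share of SPRY1-208 was 33.1, 45.9 and 32.4% in β-arrestin1/2 KO cells at basal and 69.1, 68.2 and 72.2% with isoproterenol, without overlap, and 62.7, 69.7 and 62.7% against 25.7, 58.6 and 48.7% in wildtype cells. The order of the conditions was thus opposite in these lines. In Gαs KO cells it ran from 37.0 to 71.1% at basal and overlapped with isoproterenol. How far the estimated split between transcripts that share most of their sequence enters these shares was not tested, and the gene sums were used in all tests.

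**Figure D5:**
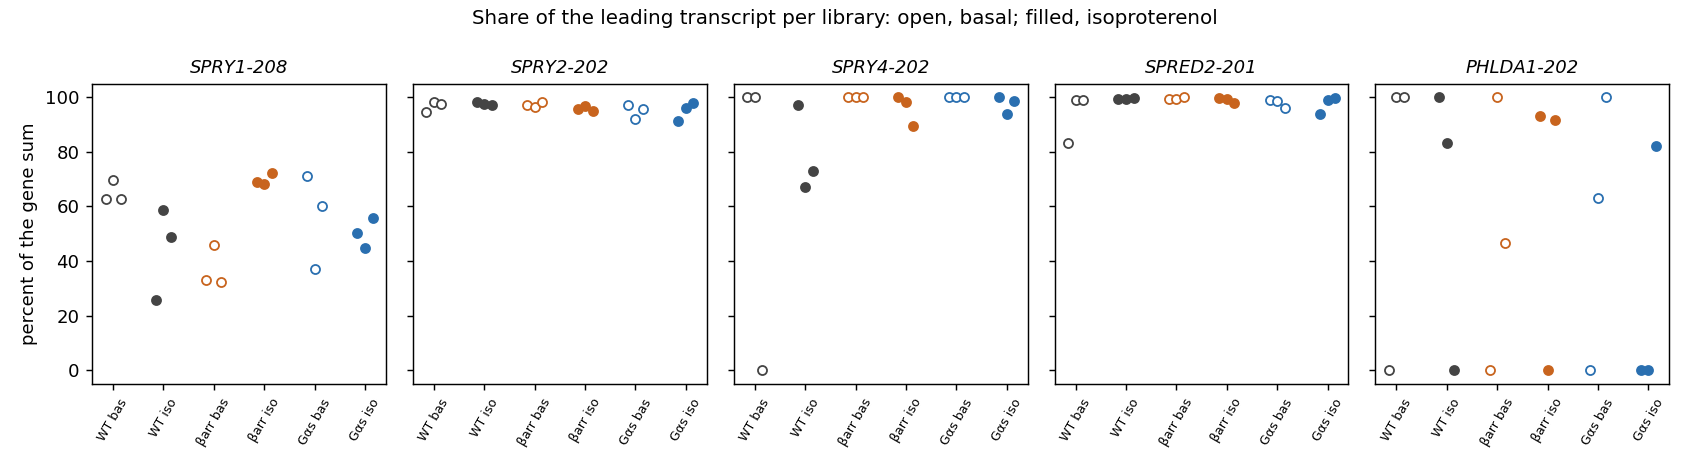
Share of the gene sum held by the leading transcript (vertical axis, percent) in each of the 18 libraries for SPRY1, SPRY2, SPRY4, SPRED2 and PHLDA1, by group. Open points are basal and filled points isoproterenol libraries. SPRY2-202 stays within 91.4 to 98.4%, and PHLDA1-202 spreads over the whole axis.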

How the data were processed

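Poly(A) RNA of 18 HEK293 libraries had been sequenced as paired reads. The authors deposited expected counts per transcript (184844 transcripts), estimated with Salmon 1.7.0 on GRCh38 (hg38) and not normalized. The submitters' notes also name DESeq2, and the transcript index is not given in the sources used here. Transcripts were joined by Ensembl identifier to GENCODE release 29, summed to genes and rounded, which kept 92.92 to 93.75% of the counts.

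Genes were filtered with filterByExpr, scaled by TMM and fitted with edgeR 4.0.16 (quasi-likelihood, 1 coefficient per group, all 18 libraries) in R 4.3.3, with Benjamini-Hochberg adjustment over 15519 genes and a threshold of 0.05. Standard errors are the log2 fold change divided by the square root of F. Normalized counts are scaled to the mean effective library size, and TPM uses annotated transcript lengths. DESeq2 1.42.0, other filters, only the groups compared, a replicate block, lowess offsets (span 0.3) for GC content and length, and 18 leave-one-out fits were alternatives. With 3 libraries against 3 an exact permutation test cannot go below 0.1. Tables and plots used Python 3.11.15 with pandas 2.3.3 and matplotlib 3.10.9.

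The text names all members, list genes called in a response or response difference, per list up to 4 genes with the largest called basal difference, the targeted genes, and the 3 genes most like each called Sprouty gene. Members and lists were chosen with earlier results of these data known. The labels do not say that a replicate number marks a shared batch, and the deviations of same-numbered libraries from the group means correlated by -0.0931 to 0.0588, so libraries were not paired. The p-values measure the spread between these biological replicates of 1 line per genotype. The values of 1 gene that the rule names are not reported here.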

Additional observations from a re-analysis of the deposited data

Results flagged for a closer look

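Responses to isoproterenol differed between the 2 KO lines by the interaction test of edgeR for SPRY2 and for 2 other ERK output genes. The difference, as log2 of the β-arrestin1/2 KO response minus the Gαs KO response, was 0.63 for SPRY2 (adjusted p = 0.0251), 1.02 for DUSP4 (adjusted p = 0.00151) and 1.07 for DUSP5 (adjusted p = 0.0437). Over all genes 0.406% were called. The call was kept in 11 of 26 alternatives for SPRY2 and 10 of 26 for DUSP5, and in all 26 for DUSP4. In each case the isoproterenol libraries of β-arrestin1/2 KO cells lay above the basal ones in 3 of 3, as they did for 15.4% of all genes. In Gαs KO cells the libraries of these 3 genes overlapped. At basal all 3 genes were already higher in β-arrestin1/2 KO than in Gαs KO cells, by 0.59, 0.41 and 1.35 on the log2 scale.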

How the results depend on the processing

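Under the 26 alternatives 0 of 2331 member values changed sign while called, 2139 kept their call and direction, 57 lost a call, 16 gained one, and 119 uncalled values changed sign. The count of members called in the wildtype response went from 1 to 0 with the replicate block, with GC and length offsets, with both, and with only the groups compared. In the β-arrestin1/2 KO response it went from 2 to 1 with all genes of at least 1 count, with the block, and with block and offsets. For the response difference of the KO lines it went from 1 to 0 with all genes of at least 1 count, the block, the offsets and both. At basal, with only the groups compared, it was 2 in place of 4 (β-arrestin1/2 KO minus wildtype) and 0 in place of 3 (Gαs KO minus wildtype), and 1 with the block in the latter. The blocked fit took 1 member, SPRY4 (-0.62, adjusted p = 0.0736), from the basal calls of β-arrestin1/2 KO minus wildtype (3 in place of 4). Among the other named genes it ended the β-arrestin1/2 KO response calls of CCND1 (adjusted p = 0.0734), DUSP6 (0.0927) and FLRT3 (0.0719) and the call of the DUSP5 difference between the KO lines (0.0989). Leaving out 1 library at a time gave 0 to 1 called members in the wildtype response, 1 to 3 in the β-arrestin1/2 KO response, 0 in all cases in the Gαs KO response, 0 in all cases for β-arrestin1/2 KO minus wildtype, 0 to 1 for the other response differences, and 2 to 6 (β-arrestin1/2 KO minus wildtype), 1 to 4 (Gαs KO minus wildtype) and 3 to 4 (between the KO lines) at basal. Without the first wildtype basal library 6 members were called in the first of these. Over all genes, the settings other than leaving out a library called 13 to 225 in the wildtype response in place of 72, 123 to 1161 in place of 175 in the β-arrestin1/2 KO response, and 37 to 572 in place of 63 in the difference between the KO lines. The corresponding ranges were 10 to 121 for 26 and 15 to 68 for 25 in the differences of the KO lines from wildtype, 0 to 9 for 0 in the Gαs KO response, and 1501 to 7505 for 5208, 1587 to 7265 for 4864 and 3416 to 7172 for 4064 at basal. Leaving out 1 library gave 56 to 173 in the wildtype response, 113 to 1849 in the β-arrestin1/2 KO response, 0 in all cases in the Gαs KO response, 15 to 1302, 19 to 66 and 44 to 423 in the differences (β-arrestin1/2 KO minus wildtype, Gαs KO minus wildtype, between the KO lines), and 4103 to 7368, 3700 to 7236 and 3074 to 7144 at basal. Without the first wildtype basal library 1849 genes were called in the β-arrestin1/2 KO response, 1302 in its difference from wildtype, 423 in the difference between the KO lines and 173 in the wildtype response. The cause of these shifts was not tested.

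ETV4, SPRY3 and SPRED3 held few counts, and their errors were wide.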
